A study of Mus musculus with 6 samples.

Results

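The matrix metalloproteinases (MMPs), the ADAMTS proteases with their ADAMTS-like relatives, and the tissue inhibitors of metalloproteinases (TIMPs) were followed in mouse aortic roots. Members were taken by symbol from the deposited table of 23420 genes. Of 51 genes with an Mmp, Timp, Adamts or Adamtsl symbol, 41 reached the minimum of 30 counts summed over the 6 libraries, namely 16 MMPs, 4 TIMPs, 16 ADAMTS enzymes and 5 ADAMTS-like proteins. All 41 also passed the filter on low counts and were tested. The other 10 held 0 to 25 counts in all: Mmp1a and Mmp1b held 0, Mmp7, Mmp10, Adamts13 and Adamts16 held 1 each, Mmp20 and Mmp21 held 4 each, Adamts18 held 16 and Mmp8 held 25. The lowest members inside the minimum were Mmp24 with 115 counts, Mmp27 with 225 and Adamts17 with 252.

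RNA sequencing was done on 6 whole aortic roots, the stretch where the aorta leaves the heart and holds the aortic valve. There were 3 roots labelled Sost-/- and 3 labelled Sost+/+, all from C57BL6/J mice aged 12 months. Every mouse in both groups had eaten standard chow until 4 months of age and a high-cholesterol diet for the following 8 months, and both groups were imaged by echocardiography at 4, 9 and 12 months. The allele, the sex and the identity of the animals are not given in the labels, so p-values refer to the spread among these roots alone. The study asks whether loss of Sost, the gene of the Wnt inhibitor sclerostin, alters the root under a diet that favours valve calcification.

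MMPs are zinc proteases that are made as inactive proenzymes and cleave collagens, elastin, proteoglycans and one another once activated. ADAMTS enzymes are secreted relatives that cleave proteoglycans, trim procollagens or bind fibrillin microfibrils, while ADAMTS-like proteins keep the binding modules without the protease. TIMPs block the active sites of MMPs, and Timp3 also those of ADAMTS enzymes. The balance of proteases and TIMPs is held to govern the upkeep of valve leaflets and of the elastic aortic wall.

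Total counts came to 41803775, 38870673 and 39365312 for the 3 libraries labelled Sost-/-, against 48172863, 40756468 and 37023586 in those labelled Sost+/+. Sost itself went against the labels. It stood at 53.4, 26.2 and 12.2 CPM (counts scaled to library size, with TMM factors) in the libraries labelled Sost-/-, against 7.94, 15.8 and 7.52 CPM in those labelled Sost+/+. The highest values were in libraries labelled Sost-/-, the groups overlapped, and the difference missed the threshold (edgeR adjusted p = 0.124, and an exact two-sided permutation gave p = 0.2 where 0.1 is the least it can give). Every direction below therefore refers to the labels.

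Mmp3, Mmp9, Mmp17, Mmp23 and Adamts10 rose in the libraries labelled Sost-/-, by 0.50 to 1.69 on the log2 scale. They were 5 of 41 members, or 12.2%, where the same test called 2.18% of all 15096 tested genes higher and 2.55% in either direction (edgeR's quasi-likelihood test, adjusted p under 0.05 over all genes). No member fell, against 0.371% of all tested genes, and at an unadjusted p under 0.05 there were 14 members higher (against 11.6% of all tested genes) and 4 lower (against 8.62%). DESeq2, run as an alternative, called 10 members higher (24.4%, against 5.31% of all genes it tested) and 2 lower (4.88%, against 2.99%), with 8.31% of all genes called in either direction. Values of the libraries labelled Sost-/- all lay above the others for 15 members (36.6%, against 14.3% of all tested genes) and all below for 3 (7.32%, against 11.1%). The median log2 fold change of the 41 members was 0.22, beside 0.0066 over all tested genes. Smooth muscle markers were higher in the same libraries, with a summed level of 4236 to 6441 CPM in the libraries labelled Sost-/- and 1456 to 2827 CPM in those labelled Sost+/+. With their mean log2 level as a covariate, edgeR called 0 of all 15096 genes, members included. That level was fully apart between the libraries labelled Sost-/- (7.35 to 7.97) and Sost+/+ (5.94 to 6.80). This fit therefore cannot separate smooth muscle level from genotype label. The roots are whole tissue, so fewer cells of a type and less RNA per cell cannot be told apart.

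**Figure D1:**
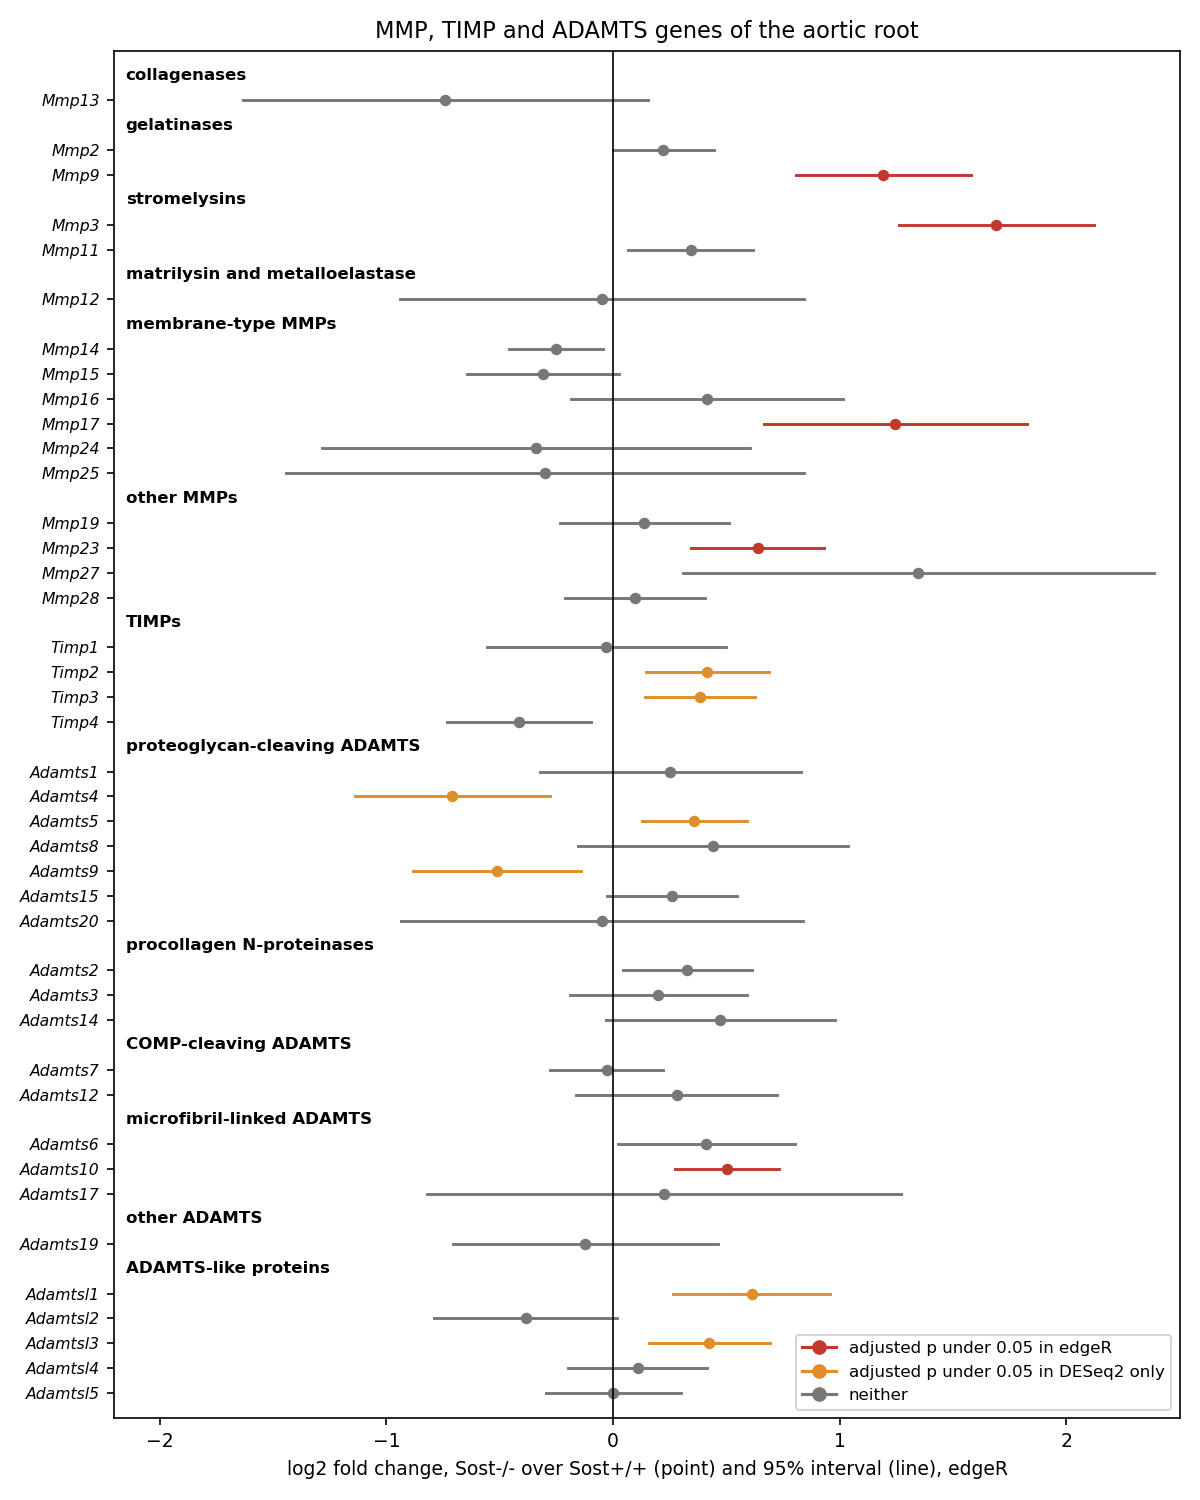
Log2 fold change of each of the 41 genes, libraries labelled Sost-/- over those labelled Sost+/+, as a point with its 95% interval as a line (edgeR, n = 3 each), grouped by role, with red for genes that passed edgeR, orange for DESeq2 alone and grey for neither. The 5 genes that passed the test, Mmp3, Mmp9, Mmp17, Mmp23 and Adamts10, all lie to the right of 0, and the intervals of 23 genes include 0.

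Mmp3 had the largest fold change of the 41. It encodes stromelysin-1, which cleaves proteoglycans, fibronectin and laminin and activates other pro-MMPs, and lies at chr9:7445822-7455975 on the plus strand (build mm10, GENCODE M21). Its level was 70.6, 105 and 82.8 CPM in the libraries labelled Sost-/-, against 21.4, 34.0 and 24.8 CPM in those labelled Sost+/+. The lowest library labelled Sost-/- was above the highest labelled Sost+/+. The means were 86.2 ± 17.6 CPM in the libraries labelled Sost-/- and 26.7 ± 6.49 CPM in those labelled Sost+/+ (SD, n = 3 each), a log2 fold change of 1.69 (SE 0.19, 95% interval 1.26 to 2.12, edgeR adjusted p = 0.0119). Leaving out 1 library at a time gave 1.52 to 1.89, and the call was lost only without Sost+/+ replicate 1 (1.54, edgeR adjusted p = 0.0716).

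Mmp3 belongs to a run of 10 MMP genes on chromosome 9, in the order Mmp13, Mmp12, Mmp1b, Mmp3, Mmp1a, Mmp10, Mmp8, Mmp27, Mmp20 and Mmp7. Of its neighbours, Mmp12, Mmp13 and Mmp27 were tested and 0 passed with either tool. Mmp1a and Mmp1b, the mouse counterparts of interstitial collagenase, held 0 counts, and Mmp10, Mmp8, Mmp20 and Mmp7 were also under the minimum. Mmp13, collagenase-3, which cleaves fibrillar collagens, stood at 0.841, 1.65 and 1.03 CPM in the libraries labelled Sost-/-, against 1.52, 1.27 and 3.10 CPM in those labelled Sost+/+ (log2 fold change -0.74, SE 0.40, edgeR adjusted p = 0.330). Mmp12, the macrophage metalloelastase, stood at 4.86, 9.25 and 5.61 CPM in the libraries labelled Sost-/-, against 5.31, 3.64 and 11.5 CPM in those labelled Sost+/+ (log2 fold change -0.05, SE 0.40, edgeR adjusted p = 0.960). Both genes overlapped between groups, and 157 exon bases of Mmp12 are shared with Mmp1b on the opposite strand. Mmp27, a little-studied member, stood at 0.911, 1.83 and 1.22 CPM in the libraries labelled Sost-/-, all above the 0.224, 0.788 and 0.549 CPM of those labelled Sost+/+. Its log2 fold change was 1.35 (SE 0.46, 95% interval 0.31 to 2.39) and did not pass (edgeR adjusted p = 0.154, DESeq2 adjusted p = 0.0794).

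**Figure D2:**
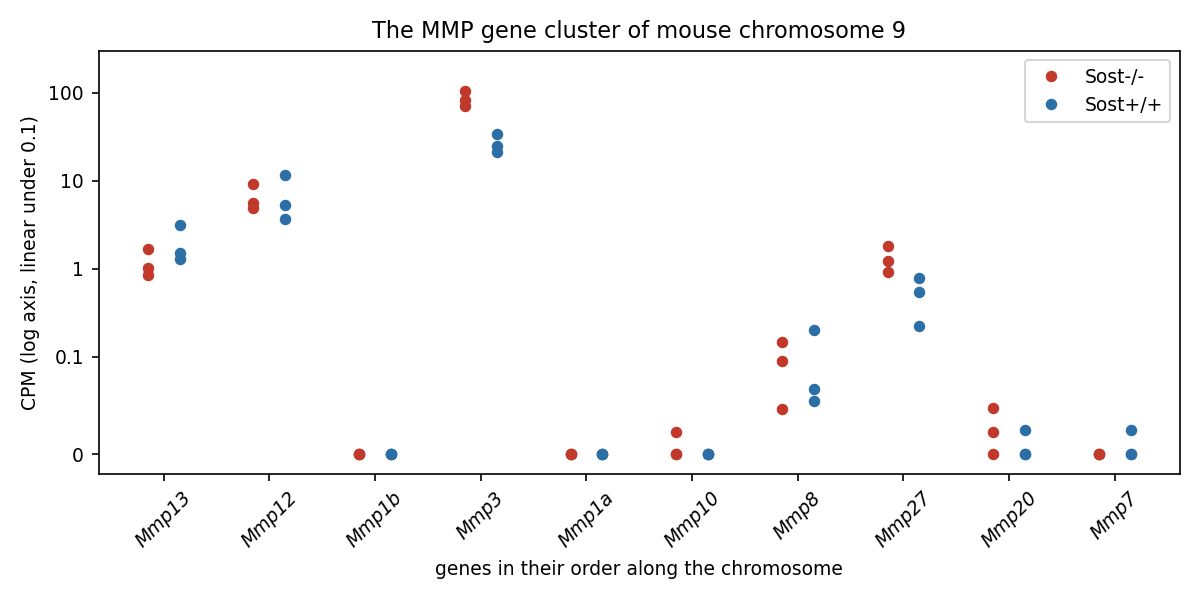
CPM per library (log axis, linear under 0.1) of the 10 MMP genes of chromosome 9 in chromosomal order, libraries labelled Sost-/- left of those labelled Sost+/+. Mmp3 stands highest, at 70.6 to 105 CPM in the libraries labelled Sost-/- and 21.4 to 34.0 CPM in those labelled Sost+/+, and Mmp1a and Mmp1b are at 0.

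A window around a start site is shown for each of Mmp3, Mmp12 and Mmp13. The windows shown are those of the members that carry the same pair of promoter motifs, so their sharing it is no result. Mmp3 alone of the 3 genes passed the test, and a role of the motifs was not tested. Each window runs from 250 bases before to 50 bases after a RefSeq start (GRCm38.p6, plus strand). They lie at chr9:7445572-7445871 for Mmp3, chr9:7347124-7347423 for Mmp12 and chr9:7272264-7272563 for Mmp13. The window of another Mmp12 start, at chr9:7344147-7344446, holds neither motif and is not shown, so for Mmp12 the pair depends on the start used. Capitals mark the AP-1 motif TGANTCA, searched on both strands, and the TATA box letters TATAAA, searched on the sense strand.
Mmp3: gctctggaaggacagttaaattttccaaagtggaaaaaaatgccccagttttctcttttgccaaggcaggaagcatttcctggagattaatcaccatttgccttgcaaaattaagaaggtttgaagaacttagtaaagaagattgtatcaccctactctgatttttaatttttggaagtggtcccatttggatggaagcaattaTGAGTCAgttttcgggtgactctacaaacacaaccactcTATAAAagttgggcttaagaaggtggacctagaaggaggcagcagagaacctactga
Mmp12: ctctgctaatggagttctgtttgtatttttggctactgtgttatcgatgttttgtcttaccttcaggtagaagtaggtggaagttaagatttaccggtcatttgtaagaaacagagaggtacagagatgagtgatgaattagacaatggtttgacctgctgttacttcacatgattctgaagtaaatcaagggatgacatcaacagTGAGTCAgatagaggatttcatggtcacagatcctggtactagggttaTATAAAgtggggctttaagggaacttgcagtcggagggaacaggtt
Mmp13: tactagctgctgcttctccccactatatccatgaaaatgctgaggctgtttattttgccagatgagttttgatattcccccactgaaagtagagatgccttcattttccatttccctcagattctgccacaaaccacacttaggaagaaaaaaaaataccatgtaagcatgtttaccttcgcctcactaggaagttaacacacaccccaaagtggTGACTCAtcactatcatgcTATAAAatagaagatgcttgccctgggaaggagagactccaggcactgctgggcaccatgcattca
The AP-1 motif began 46, 44 and 35 bases before the start in Mmp3, Mmp12 and Mmp13. TATAAA began at -7 in Mmp3 and -16 in Mmp13, counted from the start, but at 5 in Mmp12, after the start used. The AP-1 motif was found in 3 of 29 windows of the members (10.3%), those shown for these 3 genes, and in 7.81% of all 32851 RefSeq windows. TATAAA was found in 5 member windows (17.2%), with Adamts1 and Adamtsl2 beside these 3, and in 8.32% of all windows. The E-box CACGTG was found for Adamts17 alone (3.45% of member windows, 7.15% of all), and the CArG box and the ETS motif CCGGAAG in 0 member windows, against 1.63% and 8.86% of all. Windows were matched for 27 of the 41 members. Mmp9, Mmp17 and Adamts10, which passed edgeR, were not among them, so the motifs were not searched for in these genes.

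Of the gelatinases, which cleave denatured collagen, basement membrane collagen and elastin, Mmp9 rose and Mmp2 did not pass. Mmp9 (gelatinase B, chr2:164940780-164955850, plus strand) stood at 8.65, 8.14 and 9.43 CPM in the libraries labelled Sost-/-, against 3.70, 4.63 and 3.13 CPM in those labelled Sost+/+. The groups did not overlap, and the means were 8.74 ± 0.648 CPM in the libraries labelled Sost-/- and 3.82 ± 0.757 CPM in those labelled Sost+/+ (SD, n = 3 each). The log2 fold change was 1.19 (SE 0.17, 95% interval 0.81 to 1.58, edgeR adjusted p = 0.0151). Mmp2, gelatinase A, is made by fibroblasts and smooth muscle and is activated by Mmp14 with the help of Timp2. It stood at 184, 198 and 187 CPM in the libraries labelled Sost-/-, against 151, 182 and 155 CPM in those labelled Sost+/+. The groups were apart by a small gap, and the log2 fold change of 0.22 (SE 0.10) did not pass (edgeR adjusted p = 0.249). Neutrophils and macrophages are known sources of Mmp9. Of 8 neutrophil markers, 3 were abundant enough to test and 0 passed with either tool, also at an unadjusted p under 0.05, and their summed level was 6.29 to 7.27 CPM in the libraries labelled Sost-/- and 5.16 to 7.38 CPM in those labelled Sost+/+. Of 9 macrophage markers, 8 were tested and 0 passed with edgeR. DESeq2 called 1 higher (against 5.31% of all genes it tested). At an unadjusted p under 0.05, 2 were higher (against 11.6% of all tested genes). The macrophage markers summed to 1045 to 1711 CPM in the libraries labelled Sost-/- and 1160 to 1368 CPM in those labelled Sost+/+. The marker sums of smooth muscle, of fibroblasts and valve interstitial cells, and of mast cells lay wholly higher in the libraries labelled Sost-/-. The cardiomyocyte sum lay wholly lower. Which cells the Mmp9 reads came from was not tested. The Mmp9 call was lost without Sost-/- replicate 3 (1.13, edgeR adjusted p = 0.0750) and without Sost+/+ replicate 1 (1.15, edgeR adjusted p = 0.0979).

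Of the membrane-type MMPs, which are tethered to the cell surface, Mmp17 rose and the other 5 did not pass. Mmp17 (chr5:129584169-129611099, plus strand) encodes a protease held by a glycolipid anchor that is known from aortic smooth muscle of the mouse. It stood at 12.2, 9.45 and 13.5 CPM in the libraries labelled Sost-/-, against 3.45, 7.15 and 4.25 CPM in those labelled Sost+/+. The groups did not overlap. Sost-/- replicate 2 was the lowest of its group and Sost+/+ replicate 2 the highest of its group, but replicate numbers do not pair the libraries. The means were 11.7 ± 2.06 CPM in the libraries labelled Sost-/- and 4.95 ± 1.94 CPM in those labelled Sost+/+ (SD, n = 3 each), a log2 fold change of 1.24 (SE 0.26, edgeR adjusted p = 0.0436). With 1 library left out, the call held without Sost+/+ replicate 2 (1.60, edgeR adjusted p = 0.00977). It was lost without Sost-/- replicates 1, 2 and 3 (1.21, 1.38 and 1.13, edgeR adjusted p = 0.0745, 0.0532 and 0.177) and without Sost+/+ replicates 1 and 3 (1.02 and 1.14, edgeR adjusted p = 0.157 and 0.0909).

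Mmp14, the main pericellular collagenase and activator of pro-Mmp2, stood at 56.9, 55.1 and 49.96 CPM in the libraries labelled Sost-/-, all below the 69.1, 64.1 and 59.5 CPM of those labelled Sost+/+. It had a log2 fold change of -0.25 (SE 0.09) and did not pass (edgeR adjusted p = 0.174, DESeq2 adjusted p = 0.125). Mmp15, a membrane-spanning relative, stood at 101, 70.9 and 82.0 CPM in the libraries labelled Sost-/-, against 87.8, 117 and 110.0 CPM in those labelled Sost+/+. Its groups overlapped (log2 fold change -0.31, SE 0.15, edgeR adjusted p = 0.281). Mmp16, Mmp24 and Mmp25 reached at most 3.96 CPM in any library.

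Mmp23 was placed outside these classes, and Mmp11 was grouped with Mmp3 as a stromelysin. Mmp23 (chr4:155650655-155653384, minus strand) is a small MMP anchored at its amino end until it is cut. It stood at 56.0, 71.4 and 79.3 CPM in the libraries labelled Sost-/-, all above the 41.5, 48.4 and 43.0 CPM of those labelled Sost+/+. The means were 68.9 ± 11.9 CPM in the libraries labelled Sost-/- and 44.3 ± 3.66 CPM in those labelled Sost+/+ (SD, n = 3 each), a log2 fold change of 0.64 (SE 0.13, edgeR adjusted p = 0.0414). With 1 library left out, the call held without Sost-/- replicate 1 (0.77, edgeR adjusted p = 0.0231) and was lost without any of the other 5 (0.52 to 0.70, edgeR adjusted p = 0.0597 to 0.174). Mmp11, stromelysin-3, which is activated by furin inside the cell and degrades matrix poorly, stood at 11.6, 11.2 and 11.7 CPM in the libraries labelled Sost-/-, all above the 9.04, 10.2 and 8.04 CPM of those labelled Sost+/+. It did not pass (log2 fold change 0.34, SE 0.12, edgeR adjusted p = 0.169).

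**Figure D3:**
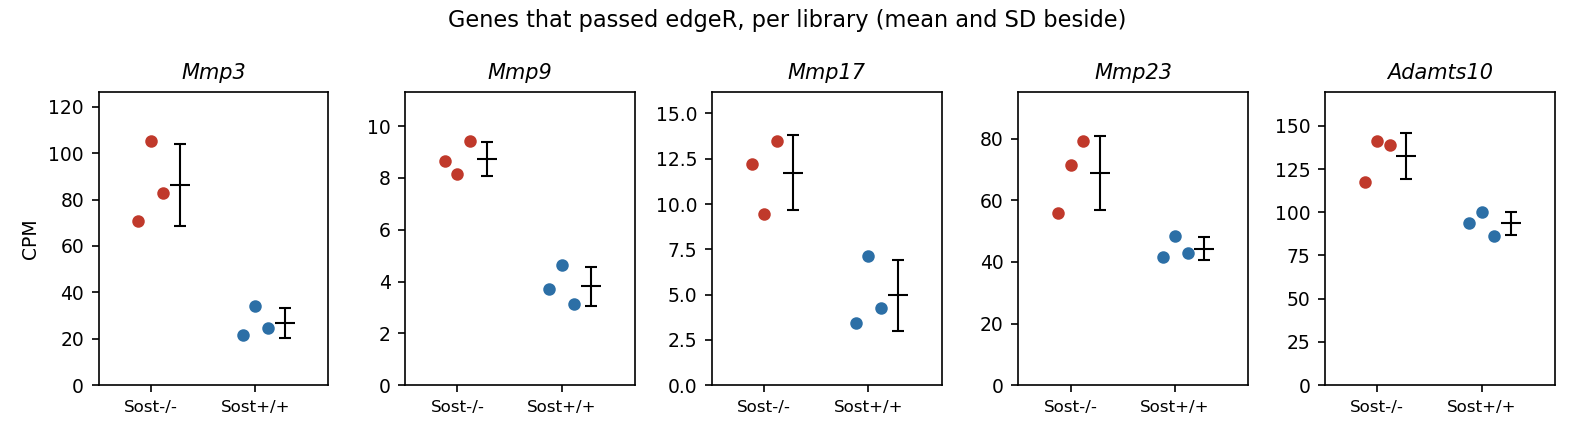
CPM of Mmp3, Mmp9, Mmp17, Mmp23 and Adamts10 in each library (points) with the group mean and SD, libraries labelled Sost-/- left of those labelled Sost+/+, n = 3 each. In every panel the lowest point labelled Sost-/- lies above the highest labelled Sost+/+, for Mmp23 at 56.0 against 48.4 CPM.

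Of the TIMPs, 2 had fold changes above 0 and 2 below, and 0 of 4 passed with edgeR. At an unadjusted p under 0.05, 2 were higher (against 11.6% of all tested genes) and 1 was lower (against 8.62%). DESeq2 called 2 higher (against 5.31%). Timp2 (chr11:118301069-118355740, minus strand) inhibits MMPs and also carries pro-Mmp2 to Mmp14. It stood at 525, 576 and 657 CPM in the libraries labelled Sost-/-, all above the 402, 485 and 429.9 CPM of those labelled Sost+/+. The fold change on the log2 scale was 0.42 (SE 0.12, edgeR adjusted p = 0.110, DESeq2 adjusted p = 0.0144). Timp3 (chr10:86300372-86349506, plus strand) binds to the matrix and also inhibits ADAM and ADAMTS proteases. It stood at 863, 849.9 and 977 CPM in the libraries labelled Sost-/-, all above the 644, 728 and 691 CPM of those labelled Sost+/+. The fitted log2 fold change was 0.38 (SE 0.11, edgeR adjusted p = 0.103, DESeq2 adjusted p = 0.00580).

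Timp4 (chr6:115241892-115252205, minus strand), the TIMP best known from heart muscle, had the opposite sign. It stood at 16.2, 22.5 and 23.6 CPM in the libraries labelled Sost-/-, all below the 29.2, 25.5 and 28.2 CPM of those labelled Sost+/+. Its log2 fold change was -0.41 (SE 0.14) and did not pass (edgeR adjusted p = 0.151, DESeq2 adjusted p = 0.0678). Timp1 (chrX:20870166-20874735, plus strand), the TIMP induced by cytokines, stood at 22.2, 34.5 and 27.1 CPM in the libraries labelled Sost-/-, against 21.3, 24.5 and 39.9 CPM in those labelled Sost+/+. Its groups overlapped, with a log2 fold change of -0.03 (SE 0.23, 95% interval -0.56 to 0.50). Timp3 lies within Syn3 on the opposite strand and shares 1733 exon bases with it, and Timp4 likewise shares 90 with Syn2. How strand was treated in counting is not given in the sources used here, so reads of such pairs may not be told apart.

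**Figure D4:**
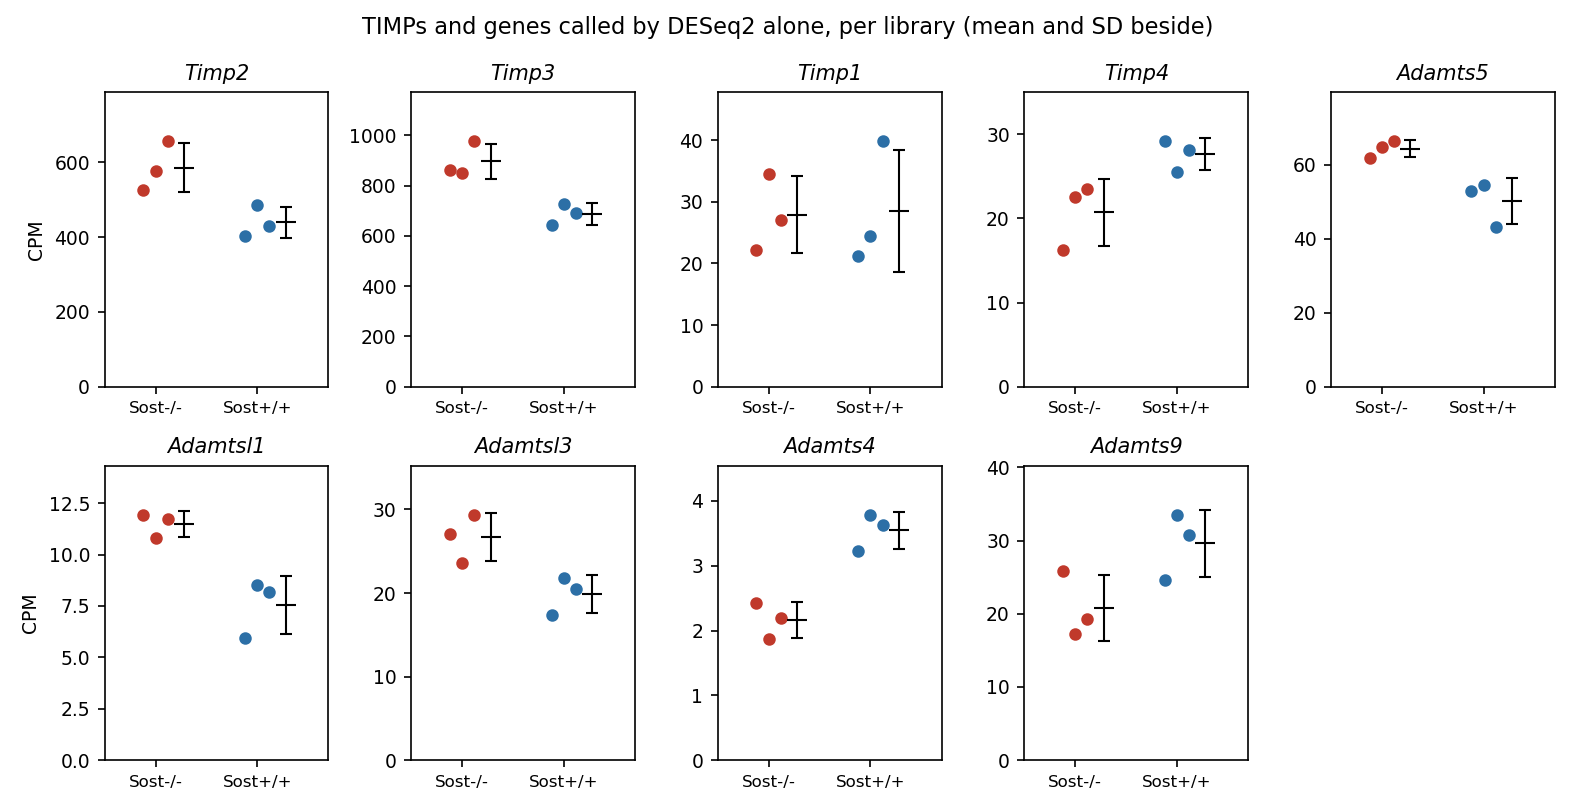
CPM in each library (points) with the group mean and SD for the 4 TIMPs and the ADAMTS and ADAMTS-like genes named by DESeq2 alone, libraries labelled Sost-/- left of those labelled Sost+/+, n = 3 each. The groups are apart upward for Timp2, Timp3, Adamts5, Adamtsl1 and Adamtsl3, apart downward for Timp4 and Adamts4, and overlap for Timp1 and Adamts9.

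Of the 16 ADAMTS enzymes, Adamts10 rose. It lies at chr17:33524204-33553782 on the plus strand, and its product binds fibrillin microfibrils, its human counterpart being a gene of Weill-Marchesani syndrome. It stood at 117, 141 and 139 CPM in the libraries labelled Sost-/-, all above the 93.9, 100.1 and 86.5 CPM of those labelled Sost+/+. The means were 132 ± 13.1 CPM in the libraries labelled Sost-/- and 93.5 ± 6.80 CPM in those labelled Sost+/+ (SD, n = 3 each), a log2 fold change of 0.50 (SE 0.10, edgeR adjusted p = 0.0414). Here too the call held without Sost-/- replicate 1 (0.58, edgeR adjusted p = 0.0331) and was lost without any of the other 5 (0.44 to 0.55, edgeR adjusted p = 0.0663 to 0.188). Its closest relative Adamts6, needed for heart development in mice, stood at 7.27, 6.32 and 5.49 CPM in the libraries labelled Sost-/-, all above the 5.20, 3.97 and 5.16 CPM of those labelled Sost+/+. It did not pass (log2 fold change 0.41, SE 0.17, edgeR adjusted p = 0.226).

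Of the proteoglycan-cleaving ADAMTS enzymes, 4 had fold changes above 0 and 3 below, and 0 of 7 passed with edgeR. At an unadjusted p under 0.05, 1 was higher (against 11.6% of all tested genes) and 2 were lower (against 8.62%). DESeq2 also called 1 higher (against 5.31%) and 2 lower (against 2.99%). Adamts5, an aggrecanase and versicanase needed for the shaping of mouse heart valves, stood at 62.0, 64.7 and 66.4 CPM in the libraries labelled Sost-/-, all above the 52.9, 54.6 and 43.1 CPM of those labelled Sost+/+. The log2 fold change was 0.36 (SE 0.10, edgeR adjusted p = 0.105, DESeq2 adjusted p = 0.0465). Adamts4, the other main aggrecanase, stood at 2.43, 1.88 and 2.20 CPM in the libraries labelled Sost-/-, all below the 3.23, 3.79 and 3.62 CPM of those labelled Sost+/+. It had a log2 fold change of -0.71 (SE 0.19, edgeR adjusted p = 0.0925, DESeq2 adjusted p = 0.0304).

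Adamts9, a versicanase needed for normal heart valves in mice, stood at 25.8, 17.2 and 19.3 CPM in the libraries labelled Sost-/-, against 24.6, 33.5 and 30.7 CPM in those labelled Sost+/+. Its groups overlapped through Sost-/- replicate 1, and its log2 fold change was -0.51 (SE 0.16, edgeR adjusted p = 0.137, DESeq2 adjusted p = 0.0480). It shares 1381 exon bases with an opposite-strand gene. Adamts1, a versicanase of the vessel wall, spread widely, with 136, 59.3 and 103 CPM in the libraries labelled Sost-/-, against 70.3, 97.7 and 82.8 CPM in those labelled Sost+/+. Its groups overlapped (log2 fold change 0.25, SE 0.25, edgeR adjusted p = 0.613). Adamts15 stood at 34.5, 42.0 and 38.9 CPM in the libraries labelled Sost-/-, against 26.5, 36.0 and 34.0 CPM in those labelled Sost+/+. Adamts8, which like Adamts15 cleaves proteoglycans, stood at 28.4, 13.0 and 22.2 CPM in the libraries labelled Sost-/-, against 12.1, 15.4 and 19.5 CPM in those labelled Sost+/+. Both overlapped and did not pass (edgeR adjusted p = 0.292 and 0.383).

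Adamts2 and Adamts14 remove the amino-terminal propeptide of fibrillar procollagens. Adamts2 stood at 112, 129 and 128 CPM in the libraries labelled Sost-/-, against 80.4, 103 and 110.0 CPM in those labelled Sost+/+. The groups were barely apart, and the log2 fold change of 0.33 (SE 0.13) did not pass (edgeR adjusted p = 0.193). Adamts14 stood at 4.67, 4.79 and 6.49 CPM in the libraries labelled Sost-/-, against 2.85, 3.92 and 4.75 CPM in those labelled Sost+/+, with overlap (log2 fold change 0.47, SE 0.22, edgeR adjusted p = 0.274).

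The ADAMTS-like proteins bind microfibrils and other matrix without cutting them, and 0 of 5 passed with edgeR. At an unadjusted p under 0.05, 2 were higher (against 11.6% of all tested genes), and DESeq2 called 2 higher (against 5.31%). Adamtsl1, or punctin, stood at 11.9, 10.8 and 11.7 CPM in the libraries labelled Sost-/-, all above the 5.92, 8.49 and 8.18 CPM of those labelled Sost+/+. The fold change on the log2 scale was 0.61 (SE 0.15, edgeR adjusted p = 0.0780, DESeq2 adjusted p = 0.0140). Adamtsl3, its close relative, stood at 27.1, 23.6 and 29.4 CPM in the libraries labelled Sost-/-, all above the 17.4, 21.8 and 20.5 CPM of those labelled Sost+/+ (log2 fold change 0.42, SE 0.12, edgeR adjusted p = 0.1001, DESeq2 adjusted p = 0.0431). The other 3 overlapped between groups.

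Adamtsl2, whose human counterpart is mutated in geleophysic dysplasia, stood at 44.7, 72.6 and 52.4 CPM in the libraries labelled Sost-/-, against 63.9, 87.1 and 70.6 CPM in those labelled Sost+/+ (log2 fold change -0.38, SE 0.18, edgeR adjusted p = 0.266). Adamtsl4, whose human counterpart is mutated in displacement of the eye lens, stood at 82.6, 73.5 and 97.2 CPM in the libraries labelled Sost-/-, against 65.2, 84.6 and 85.3 CPM in those labelled Sost+/+ (log2 fold change 0.11, SE 0.14, edgeR adjusted p = 0.690). Adamtsl5, a fibrillin-binding protein, stood at 155, 153 and 161 CPM in the libraries labelled Sost-/-, against 128, 154 and 187 CPM in those labelled Sost+/+. Its mean was 156 CPM in both groups, and the 95% interval of its log2 fold change ran from -0.30 to 0.30.

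The other 11 members were Mmp16, Mmp19, Mmp24, Mmp25, Mmp28, Adamts3, Adamts7, Adamts12, Adamts17, Adamts19 and Adamts20. They ranged from 0.310 to 25.3 CPM over the libraries and overlapped between groups in all 11 cases. Their log2 fold changes ran from -0.34 to 0.41, with 6 above 0 and 5 below. All 11 intervals included 0, and the smallest edgeR adjusted p was 0.417. Adamts7 and Adamts12, which cleave the cartilage protein COMP, and Adamts19, a gene of human valve disease, were in this group.

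Levels of different genes were compared per kilobase of exon. Timp2 led with 150.4 ± 17.0 CPM per kilobase in the libraries labelled Sost-/- and 113 ± 10.9 in those labelled Sost+/+ (SD, n = 3 each), followed by Timp3 and Mmp2. Timp3 averaged 110.1 ± 8.59 in the libraries labelled Sost-/- and 84.4 ± 5.20 in those labelled Sost+/+, and Mmp2 averaged 56.3 ± 2.14 in the libraries labelled Sost-/- and 48.3 ± 4.98 in those labelled Sost+/+. Over all 6 libraries, Adamtsl5 (33.1), Timp1 (31.8), Mmp3 (31.4) and Mmp23 (24.2) came next. Mmp3 averaged 47.9 ± 9.79 CPM per kilobase in the libraries labelled Sost-/- and 14.8 ± 3.61 in those labelled Sost+/+. Along this order, Timp3 and Mmp2 did not overlap over the 6 libraries, nor did Mmp2 and Adamtsl5, while the other 38 of 40 neighbouring pairs did. Means over all libraries were above 10 CPM per kilobase for 12 members and under 1 for 14, with Mmp24 the lowest at 0.101.

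**Figure D5:**
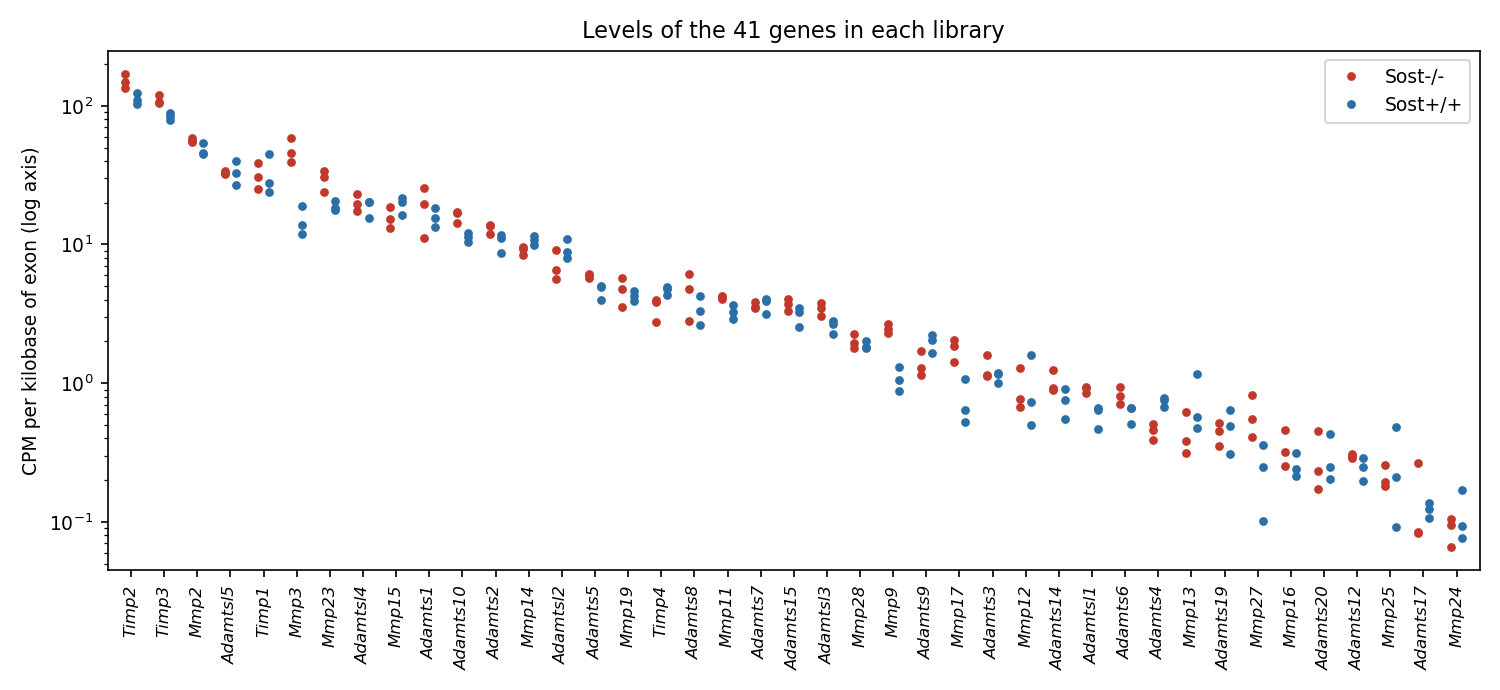
Level of each of the 41 genes in each library, in CPM per kilobase of exon (log axis), ordered by the mean over all 6 libraries, libraries labelled Sost-/- and Sost+/+ as separate colours. Timp2 and Timp3 stand above all other genes at the left, with means of 132 and 97.2, followed by Mmp2 with 52.3, whose range Mmp3 reaches in 2 libraries labelled Sost-/-, and Mmp24 is lowest with 0.101.

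Summed over their members per kilobase, the MMPs reached 176 ± 13.6 CPM per kilobase in the libraries labelled Sost-/- and 126 ± 12.5 in those labelled Sost+/+ (SD, n = 3 each). Mmp3 contributed most to that difference, with means of 47.9 in the libraries labelled Sost-/- and 14.8 in those labelled Sost+/+. Of the 16 MMPs, 10 had fold changes above 0 and 6 below. The TIMP sums were 295 ± 27.3 in the libraries labelled Sost-/- and 234 ± 19.8 in those labelled Sost+/+. The ratio of MMP to TIMP transcript was 0.603, 0.641 and 0.548 in the libraries labelled Sost-/-, against 0.546, 0.568 and 0.503 in those labelled Sost+/+, and overlapped. The TIMPs made up 47.1%, 48.3% and 50.2% of the summed level of all members in the libraries labelled Sost-/-, against 48.9%, 47.6% and 48.9% in those labelled Sost+/+. The ADAMTS sums were 72.0 ± 6.75 CPM per kilobase in the libraries labelled Sost-/- and 58.8 ± 6.25 in those labelled Sost+/+. The ADAMTS-like sums were 64.7 ± 3.40 in the libraries labelled Sost-/- and 64.2 ± 9.78 in those labelled Sost+/+.

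Genes that activate, inhibit, clear or feed these proteases were counted in 8 lists, and 0 of their 75 tested members fell with either tool (0.371% of all tested genes fell with edgeR and 2.99% with DESeq2). At an unadjusted p under 0.05, 2 were lower and 17 higher, beside 8.62% and 11.6% of all tested genes. Among all tested genes, 2.18% rose with edgeR and 5.31% with DESeq2. In the plasminogen system 1 of 7 tested genes rose (median log2 fold change -0.06), and in the inhibitors outside the TIMP family 1 of 5 (0.08). The proprotein convertases, which cut the propeptide of membrane-type MMPs and ADAMTS enzymes, had 0 of 4 (-0.09), with the smallest p for Pcsk5 (log2 fold change 0.31, SE 0.14, edgeR adjusted p = 0.250). The ADAM enzymes had 1 of 8 (0.02), the astacin, cathepsin and serine proteases 1 of 14 (0.23, DESeq2 3), and the clearance receptors and thrombospondins 1 of 4 (0.16). The matrix substrates had 1 of 19 (0.24, DESeq2 5), and the inducers and transcription factors, AP-1 subunits among them, 0 of 14 (-0.10). In the last list the smallest p was that of Bsg, the MMP inducer basigin (log2 fold change -0.31, SE 0.12, edgeR adjusted p = 0.208).

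In 6 of the lists 1 gene rose. Reck, a membrane-anchored inhibitor of MMPs, stood at 36.5, 31.8 and 39.0 CPM in the libraries labelled Sost-/-, against 16.8, 23.6 and 22.8 CPM in those labelled Sost+/+ (log2 fold change 0.77, SE 0.14, edgeR adjusted p = 0.0279). Serpine2, a serine protease inhibitor that blocks thrombin and plasminogen activators, stood at 134, 145 and 159 CPM in the libraries labelled Sost-/-, against 98.8, 107 and 94.8 CPM in those labelled Sost+/+ (0.54, SE 0.10, edgeR adjusted p = 0.0279). Thbs2, a thrombospondin that aids uptake of Mmp2 by cells, stood at 75.0, 79.7 and 72.7 CPM in the libraries labelled Sost-/-, against 50.9, 58.8 and 53.5 CPM in those labelled Sost+/+ (0.48, SE 0.09, edgeR adjusted p = 0.0288). In all of these the groups were apart. Adam33, a membrane protease known from smooth muscle and fibroblasts, stood at 22.5, 25.1 and 33.5 CPM in the libraries labelled Sost-/-, against 7.24, 12.9 and 7.69 CPM in those labelled Sost+/+ (1.54, SE 0.23, edgeR adjusted p = 0.0179). Tll1, a procollagen C-proteinase, stood at 3.06, 3.16 and 3.06 CPM in the libraries labelled Sost-/-, against 0.964, 1.35 and 1.81 CPM in those labelled Sost+/+ (1.17, SE 0.25, edgeR adjusted p = 0.0487, and 0.0507 with DESeq2's size factors in edgeR). Acan, which encodes aggrecan, the substrate of Adamts4 and Adamts5, stood at 9.93, 6.14 and 9.26 CPM in the libraries labelled Sost-/-, against 1.08, 3.15 and 1.29 CPM in those labelled Sost+/+ (2.20, SE 0.38, edgeR adjusted p = 0.0252). These 3 also did not overlap between groups. With the smooth muscle covariate the values were 0.32 for Reck, 0.27 for Serpine2, 0.39 for Thbs2, 0.40 for Adam33, 1.39 for Tll1 and 0.27 for Acan, and 0 were called. All 6 calls were also lost without Sost-/- replicate 3 (edgeR adjusted p = 0.0724 to 0.184), without Sost+/+ replicate 1 (0.103 to 0.159) and without Sost+/+ replicate 3 (0.0505 to 0.0708). Reck, Tll1 and Thbs2 were lost without Sost-/- replicate 1 (0.0537 to 0.0804), Serpine2, Tll1 and Thbs2 without Sost-/- replicate 2 (0.0655 to 0.107) and Tll1 without Sost+/+ replicate 2 (0.112).

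Markers of cell types in the root moved with the same contrast. Of all tested genes, edgeR called 2.18% higher and 0.371% lower, and DESeq2 called 5.31% higher and 2.99% lower. At an unadjusted p under 0.05, 11.6% of all tested genes were higher and 8.62% lower. Of 13 smooth muscle markers, 10 rose, such as Acta2 and Myh11, and 0 fell, and the median log2 fold change of all 13 was 1.56. Lmod1, Synpo2 and Myocd did not pass, with log2 fold changes of 0.92, 0.12 and -0.05 (edgeR adjusted p = 0.114, 0.652 and 0.868). Of 12 cardiomyocyte markers, 0 rose and 1, Csrp3, fell (DESeq2 called 8 lower), with a median of -0.45 and sums of 57257 to 71276 CPM in the libraries labelled Sost-/- and 84518 to 90886 CPM in those labelled Sost+/+. Of 10 markers of fibroblasts and valve interstitial cells, 1, Vim, rose (5 were higher at an unadjusted p under 0.05, and DESeq2 called 4 higher), with a median of 0.33 and sums of 6109 to 7008 CPM in the libraries labelled Sost-/- and 5094 to 5437 CPM in those labelled Sost+/+. Of 7 mast cell markers 0 passed (5 were higher at an unadjusted p under 0.05, and DESeq2 called 3 higher), and their sum was 55.8 to 92.8 CPM in the libraries labelled Sost-/- and 40.9 to 52.0 CPM in those labelled Sost+/+. Among markers of endothelium, T cells, cartilage, fat, Schwann cells and skeletal muscle, Acan alone was called by edgeR, and DESeq2 called 2 cartilage and 2 Schwann cell markers higher. At an unadjusted p under 0.05, 5 of 6 fat, 4 of 6 Schwann cell and 3 of 7 tested cartilage markers were higher, and 3 of 6 T cell and 1 of 8 endothelial markers were lower. No marker found in the table was at 0 in all libraries.

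With the mean log2 level of the smooth muscle markers as a covariate in edgeR, 0 members and 0 of all genes were called, and at an unadjusted p under 0.05 the members that were higher numbered 3 and those that were lower 1. The log2 fold change of Mmp3 was then 1.39, that of Mmp9 0.51, that of Mmp23 0.33 and that of Adamts10 0.35, while that of Mmp17 turned to -0.09 (edgeR adjusted p = 0.9997 for each). With the cardiomyocyte markers as the covariate, Mmp17 alone was called (2.60, edgeR adjusted p = 0.0449), and Mmp3, Mmp9, Mmp23 and Adamts10 had values of 1.75, 1.62, 0.64 and 0.40. Both marker levels were fully apart between the groups, so these fits extend a line beyond the data, and cell makeup and genotype label cannot be told apart here. Without 1 library, edgeR called 4 members higher without Sost-/- replicate 1, 2 without replicate 2 and 1 without replicate 3, and 0, 3 and 2 without Sost+/+ replicates 1, 2 and 3. DESeq2 called the same 5 genes in every such run.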

How the data were processed

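RNA of 6 snap-frozen aortic roots was extracted with Trizol and made into strand-marking libraries, per the labels' protocols. The authors deposited a table of whole-number read counts per gene symbol and a table of normalized signal, which holds those counts over 1 size factor for each library. Named in the submitters' processing notes are the build mm10 and the tools DRAGEN, HTSeq and DESeq2. Tool versions, gene annotation and how counting treated strand were not given in the sources used here. Groups came from the genotype labels, and replicates were numbered in accession order and not paired. No pair of libraries of a group was alike within sampling noise (chi-square per degree of freedom 32.3 to 61.5).

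Of 23420 genes, 3648 were 0 in every library. Genes were kept with filterByExpr (minimum count 10, minimum total 15), scaled by TMM and tested over all 15096 kept genes with edgeR 4.0.16 (quasi-likelihood F-test) under R 4.3.3. P-values were adjusted by Benjamini and Hochberg's method, with 0.05 as the threshold. The SE is the absolute log2 fold change over the square root of F. CPM uses TMM-scaled library sizes, and levels per kilobase use the union of exons in GENCODE M21, in which all 41 genes were found. Alternatives were DESeq2 1.42.0, limma 3.58.1 with voom or on the log2 of the deposited normalized signal with a pseudocount of 1, other scalings and filters, robust dispersion, 2 marker covariates and each library left out. The steps were tested on simulated data.

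The members, the lists and the markers were chosen with earlier results of these data known. Genes named in full were those called by edgeR or DESeq2, the TIMPs and the 8 other members of highest level per kilobase, with further members as examples of their roles, and in each list the genes called or, failing that, the 1 of smallest p. Which 11 members were given by range alone, the promoter motifs, DESeq2 with a library left out, and the alternatives for Sost and for genes of the lists were decided after values were seen. Promoter windows are those of RefSeq on GRCm38.p6. One result is not reported here.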

Additional observations from a re-analysis of the deposited data

How the results depend on the processing

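The count of members called higher was 5 with each other scaling, filter, limma fit and robust dispersion. It was 10 with DESeq2 (2 lower, and 1205 genes in all against 385 in the reported fit), 0 with the smooth muscle covariate (0 genes in all) and 1 with the cardiomyocyte covariate (44 genes in all). With 1 library left out, edgeR called 0 to 4 members higher, 0 lower and 0 to 349 genes in all, the fewest without Sost+/+ replicate 1 (0 genes, 2262 at an unadjusted p under 0.05) and Sost-/- replicate 3 (10 genes). DESeq2 without Sost-/- replicates 1, 2 and 3 called 7, 9 and 5 members higher, 3, 1 and 0 lower, and 1258, 869 and 371 genes in all. Without Sost+/+ replicates 1, 2 and 3 it called 5, 11 and 9 higher, 1, 0 and 0 lower, and 631, 984 and 1356 in all. The Sost value passed in 1 run only, DESeq2 without Sost-/- replicate 3, at 1.93. The cause of these differences was not tested.

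Signs turned only for members that had not passed edgeR, and for Mmp17 (-0.086 with the smooth muscle covariate). With that covariate the log2 fold changes were 0.99 for Mmp13, 2.14 for Mmp12, 0.76 for Timp1, -0.71 for Adamts1, -0.32 for Adamtsl4, -0.025 for Mmp11, -0.0013 for Mmp2 and -0.00020 for Adamtsl3. With the cardiomyocyte covariate they were 0.46 for Mmp15 and 0.32 for Adamts9. Mmp12 turned to 0.078 with limma-voom and 0.050 on the deposited normalized values, Timp1 to 0.0089 with limma-voom, and Adamtsl5 to -0.0095 with DESeq2 or its size factors and -0.0037 with the stricter filter. With 1 library left out, Mmp12 ran from -0.38 to 0.54, Timp1 from -0.22 to 0.28, Adamts1 from -0.041 to 0.52, Adamtsl4 from -0.023 to 0.20 and Adamtsl5 from -0.14 to 0.14. No paired analysis was possible because the labels give no replicate number shared between the groups. With 3 libraries a group, members under about 1 CPM had wide intervals, as for Mmp27. Some at higher levels did too. Mmp12, with means of 6.57 CPM in the libraries labelled Sost-/- and 6.81 CPM in those labelled Sost+/+, had a 95% interval of -0.94 to 0.84.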
